A study of Mus musculus with 9 samples.

Results

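Guidance receptors and their ligands were first known from growing axons, and the same proteins steer, repel or hold back many other migrating cells, epithelial cells among them. They were examined here in AML12 cells, a hepatocyte line from mouse liver. The members were the protein-coding genes whose GENCODE M1 symbol is *Nrp1*, *Nrp2* or *Dpysl2* to *Dpysl5*, or begins with Plxn, Epha, Ephb, Efna or Efnb, or with Sema, Slit or Robo and a digit. The annotation holds 65 such genes, counting 2 gene identifiers that share the symbol *Efna5*, and 45 of them had a value, all in both deposited tables, of 12814 protein-coding genes listed in either. That is 69.2% of the members annotated, against 57.3% of all 22380 protein-coding genes annotated.

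In these systems a ligand on or from one cell binds a receptor on another. Semaphorins act through plexins, with neuropilins as co-receptors of most secreted class 3 semaphorins, Slits act through Robo receptors, and ephrins act through Eph receptor tyrosine kinases and can also signal back into the cell that carries them. Dpysl proteins, also called collapsin response mediators, are cytoplasmic proteins that bind tubulin and act downstream of semaphorin signals.

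RNA was sequenced from 9 libraries in 3 groups of 3, namely AML12 cells labelled as control and cells with shRNA 1 or shRNA 2 against *Srrm2*, which encodes a scaffold protein of nuclear speckles. The *Srrm2* hairpins were brought in by lentivirus for 5 days, and the labels do not say what the control cells received. All groups came from the same line, grown with dexamethasone, insulin, transferrin and selenium, and no source used here says whether the libraries of a group came from separate cultures. The 2 tables give, for each gene, the authors' mean normalized count over 6 libraries, taken to be the 3 control libraries together with the 3 of 1 hairpin. The labels name the shRNA 1 table for all 3 control libraries but the shRNA 2 table for 1 of them only, and tables of other hairpins, not analysed here, for the other 2. These means summed to 6144608 in the shRNA 1 table and 6393456 in the shRNA 2 table. The depth of single libraries is unknown, no value per library was used, and so no value below has an error or a test. The means of *Srrm2* were 3428 in the shRNA 1 table and 3759 in the shRNA 2 table, which pool control and depleted cells and therefore do not show the knockdown. Of 15 hepatocyte markers, 14 were listed, with means of 2151 and 1814 for *Alb* and 1498 and 1624 for *Hnf4a*, but *Afp* and *Ahsg* lay between 5.11 and 10.8 and *Apoa2* had no value. Of 4 ductal markers, *Krt7*, *Krt19* and *Sox9* had means between 670 and 2851 and *Epcam* had no value. None of 5 endothelial markers, *Kdr* included, had a value, and of the stellate list 2 of 6 did. Of 4 neuron markers, *Rbfox3* and *Snap25* had values and *Tubb3* had none. The means of these stellate and neuron genes lay between 2.26 and 8.03. The other neuron marker, *Map2*, is annotated under its older symbol *Mtap2*, which averaged 61.3 over both tables. Of the 5 macrophage and leukocyte markers annotated, 4 were listed, with *Ptprc* at 5.30 and 5.47 and *Cd14* at 490 and 526.

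Levels were compared between genes per kilobase of exon, as the average of both means after bringing the shRNA 1 table to the scale of the shRNA 2 table. On this scale the guidance genes spanned a wide range, from 0.214 for *Robo2* to 924 for *Plxnb2*. Their median level was 18.0 normalized counts per kb, below the 48.6 of all protein-coding genes listed, and 18 of the 45 lay above that overall median. Means of 100 or more in both tables were reached by 24 of the 45 (53.3%), against 60% of all protein-coding genes listed. Just above this limit were *Efna1* (means of 124 and 148) and *Epha7* (128 and 153), and just below it *Robo1* (88.1 and 100.1). A further 18 members were under 100 in a table and at 10 or more in a table, and *Robo2*, *Slit1* and *Slit3* were under 10 in both. The plot of levels by role shows this range.

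**Figure D1:**
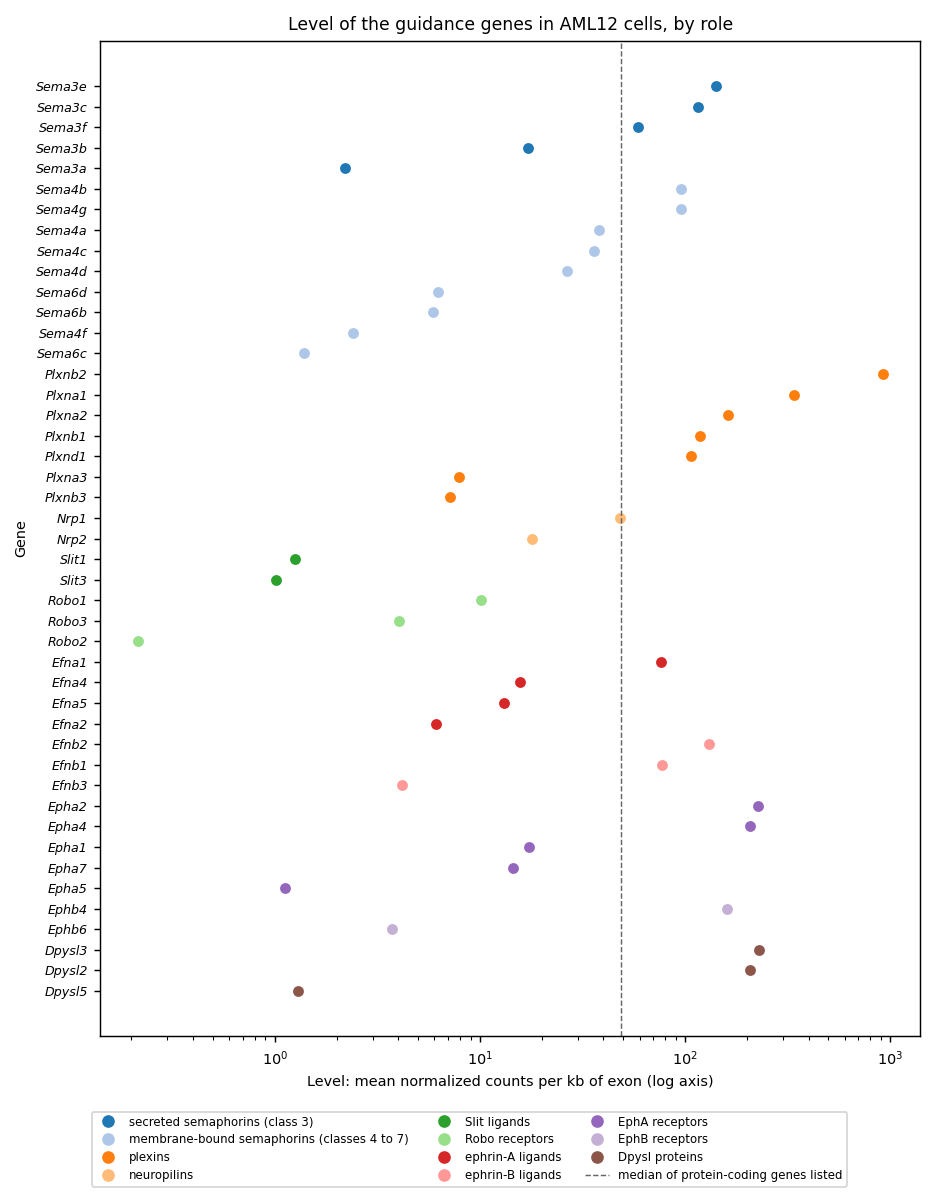
Level of each of the 45 listed guidance genes, as mean normalized counts per kb of exon on a log axis, with 1 point per gene coloured by role and a dashed line at the median of all protein-coding genes listed (48.6). Plexins, EphA receptors and Dpysl proteins hold the highest points, Slit and Robo genes lie at or below 10.1, and most role groups span more than 1 order of magnitude; points carry no error because the means are pooled over 6 libraries.

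Plexins, the receptors of semaphorins, held 44.0% of the summed level of the 45 genes. *Plxnb2* (chromosome 15 of mm9 from 88985979 to 89011218, - strand, 37 exons) alone held 24.4%. Its means were 6614 in the shRNA 1 table and 6588 in the shRNA 2 table, and its level of 924 per kb lay at percentile 98.2 of all protein-coding genes listed. The second highest member, *Plxna1* (chromosome 6, 89266310 to 89312607), had means of 2798 and 3218 and a level of 341 per kb. *Plxna2*, the other class A plexin at a high level, had 2448 and 2333 and, being a longer gene model, 162 per kb. *Plxnb1* had means of 918 and 1153, or 118 per kb. *Plxnd1*, known best as a receptor of *Sema3e* in blood vessels, had 695 and 810, or 107 per kb. These 5 plexins were thus above the median gene, while *Plxna3* and *Plxnb3*, both on the X chromosome, were at 7.91 and 7.13 per kb and *Plxna4* and *Plxnc1* had no value. The neuropilins were below these 5 plexins and above *Plxna3* and *Plxnb3*, with *Nrp1* (chromosome 8, 130882973 to 131029362) at means of 306 and 246, or 48.0 per kb, and *Nrp2* at 153 and 183, or 18.0 per kb.

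**Figure D2:**
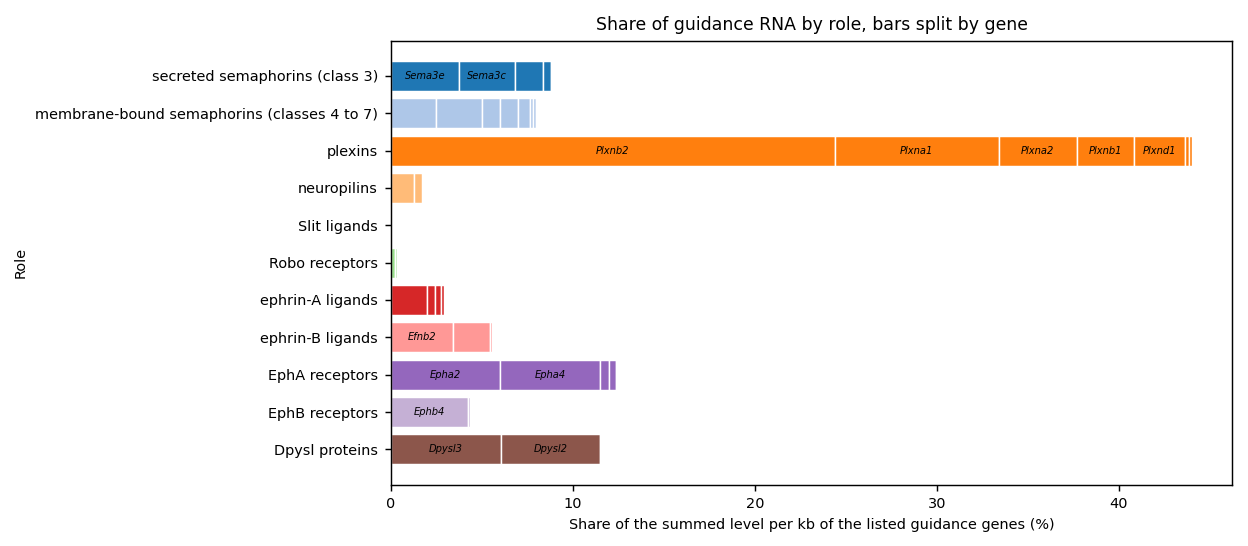
Share of the summed level per kb held by each role group, in percent, with each bar split by gene and the names of the larger segments written in them. Plexins hold 44.0%, of which *Plxnb2* alone is 24.4%, EphA receptors 12.4% and Dpysl proteins 11.5%, whereas Slit ligands hold 0.0599%.

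The semaphorins were spread over many genes. The secreted class 3 members held 8.89% of the summed level and the membrane-bound classes 4 to 7 held 8.11%. *Sema3e* had means of 1154 and 949 (142 per kb), *Sema3c* 835 and 784 (116 per kb) and *Sema3f* 197 and 203 (58.8 per kb). *Sema3b*, which lies together with *Sema3f* within 113 kb of chromosome 9, had 60.5 and 82.3 (17.1 per kb). *Sema3a*, the first semaphorin found to collapse growth cones, was near the bottom with 17.0 and 26.7 (2.21 per kb), and *Sema3d* and *Sema3g* had no value. Among the membrane-bound semaphorins, class 4 was the main one. *Sema4b* (means of 478 and 533) and *Sema4g* (447 and 458) both stood at 95.1 per kb. *Sema4a* (192 and 212) was at 38.3, *Sema4c* (139 and 185) at 36.0 and *Sema4d*, the ligand of *Plxnb1* (159 and 174), at 26.5, while *Sema4f* was at 2.40. Class 6 was low, with 6.22 per kb for *Sema6d*, 5.91 for *Sema6b* and 1.39 for *Sema6c*, and *Sema6a*, both class 5 genes and *Sema7a* had no value.

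The class 3 genes *Sema3d*, *Sema3a*, *Sema3e* and *Sema3c* lie in this order within 4853 kb of chromosome 5 of mm9 (12383166 to 17236086), all on the + strand, and differ in level as given above. The RefSeq promoter windows, 250 bases before to 50 bases after the most upstream start in the promoter table, are shown for *Sema3c* and *Sema3e*, which were high, and *Sema3d*, which had no value. That of *Sema3a* is not shown, since it lies 272 kb inside the RefSeq gene. Capitals mark the GC box GGGCGG on either strand, a motif bound by Sp1-type factors. The positions are those of GRCm38.p6, another build than that of the files, at chr5:17574566-17574865 for *Sema3c*, chr5:14025026-14025325 for *Sema3e* and chr5:12382916-12383215 for *Sema3d*.
Sema3c: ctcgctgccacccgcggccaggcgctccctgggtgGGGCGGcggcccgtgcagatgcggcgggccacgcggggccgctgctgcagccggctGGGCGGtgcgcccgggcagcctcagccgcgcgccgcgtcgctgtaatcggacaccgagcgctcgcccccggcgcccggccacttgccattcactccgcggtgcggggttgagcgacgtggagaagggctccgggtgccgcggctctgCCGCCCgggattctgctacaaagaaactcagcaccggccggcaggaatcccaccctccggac
Sema3e: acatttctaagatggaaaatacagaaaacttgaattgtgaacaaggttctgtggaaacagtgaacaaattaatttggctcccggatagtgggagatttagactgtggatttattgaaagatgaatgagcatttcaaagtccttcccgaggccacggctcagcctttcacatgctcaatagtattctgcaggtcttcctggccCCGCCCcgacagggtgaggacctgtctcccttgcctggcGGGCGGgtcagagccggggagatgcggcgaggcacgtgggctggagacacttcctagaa
Sema3d: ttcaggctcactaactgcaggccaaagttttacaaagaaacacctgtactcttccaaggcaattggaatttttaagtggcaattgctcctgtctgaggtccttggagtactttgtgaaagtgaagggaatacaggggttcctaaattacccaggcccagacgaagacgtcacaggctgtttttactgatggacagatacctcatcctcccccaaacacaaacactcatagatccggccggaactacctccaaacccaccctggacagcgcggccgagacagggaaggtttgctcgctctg
The window of *Sema3c* holds 42 CpG dinucleotides and 3 GC boxes and that of *Sema3e* 11 and 2. The window of *Sema3d* holds 8 CpG dinucleotides and 0 GC boxes. For comparison, the window of *Plxnb2*, the member with the highest level, holds 27 CpG dinucleotides and 4 GC boxes and lies on the - strand at chr15:89180739-89181038 of GRCm38.p6, with its start 1.23 kb inside the outermost start of the RefSeq gene.
Plxnb2: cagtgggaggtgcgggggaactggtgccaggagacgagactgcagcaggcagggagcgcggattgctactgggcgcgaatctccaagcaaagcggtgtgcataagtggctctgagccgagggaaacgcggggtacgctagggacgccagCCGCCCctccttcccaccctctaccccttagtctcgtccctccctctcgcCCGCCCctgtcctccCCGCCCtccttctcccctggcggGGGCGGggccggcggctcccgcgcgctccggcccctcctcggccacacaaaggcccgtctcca
A window was found for 54 of the 64 symbols, and for 20 of the 24 with means of 100 or more in both tables. Those of the 24 without a window were *Plxna1*, *Dpysl3*, *Dpysl2* and *Sema3f*. A GC box was present in 18 of the 20 members with a window and means of 100 or more in both tables, in 12 of 18 listed members below that, in 10 of 16 with no value, and in 48.2% of 14861 promoters of protein-coding genes. Some windows lie far inside their gene, among them those of *Sema4d* (37.0 kb) and *Robo1* (636 kb). With only the windows within 1000 bases of the RefSeq gene start, a choice made after seeing the data, a GC box was present in 15 of 16, 11 of 15 and 8 of 14 members and in 49.2% of 13099 promoters. The median number of CpG dinucleotides did not follow the level, at 21.5, 17.5 and 22.5 in the 3 sets of members with all windows, against 14.0 in all promoters. The share over all promoters was not split by level, so whether other genes at 100 or more also hold more GC boxes was not tested. These are matches of letters in a window, and binding was not measured.

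Of the Slit and Robo system little RNA was found. *Slit1* had means of 7.92 and 6.57, *Slit3* had 5.20 and 6.81, and *Slit2* had no value. Among the receptors *Robo1* (chromosome 16, 72663394 to 73046340) had means of 88.1 and 100.1, or 10.1 per kb, *Robo3* had 24.6 and 28.6, and *Robo2* had 2.92 and 4.02. *Robo4*, known from endothelial cells, lies within 31.3 kb of *Robo3* on chromosome 9 and had no value. Both groups together held little of the summed level, 0.378% for the Robo receptors and 0.0599% for the Slit ligands.

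The Eph receptors were represented by 1 or 2 high members in each class. *Epha2* (chromosome 4, 140857155 to 140885299), a receptor common in epithelia, had means of 1053 and 1027 and a level of 228 per kb. *Epha4* (chromosome 1, 77363760 to 77511663), which binds ephrins of both classes, had 1241 and 1337 and 208 per kb. With *Epha1* at 17.3, *Epha7* at 14.5 and *Epha5* at 1.13 per kb, *Epha2* and *Epha4* held 48.6% and 44.4% of the EphA level, and *Epha3*, *Epha6*, *Epha8* and *Epha10* had no value. In class B, *Ephb4*, the receptor of *Efnb2*, had means of 662 and 799 and, at 161 per kb, held 97.7% of the level of its class, while *Ephb6*, which lacks kinase activity, was at 3.71 and *Ephb1*, *Ephb2* and *Ephb3* had no value. Among the ligands, *Efnb2* (chromosome 8, 8617434 to 8661239) was the highest, with means of 639 and 580 and 130 per kb, and *Efnb1* on the X chromosome followed with 235 and 285 and 77.0 per kb. *Efnb3* was at 4.15 per kb. The ephrin-A ligands, which are tethered to the membrane by a lipid anchor, ranged from *Efna1* at means of 124 and 148 (75.9 per kb), close to *Efnb1*, to *Efna2* at 6.12 per kb, with *Efna4* at 15.6 and *Efna5* at 13.1 per kb between them. *Efna1*, *Efna3* and *Efna4* lie within 66.3 kb of chromosome 3, and the middle one had no value. Of the exonic bases of *Efna5*, 59.9% are shared with the second gene identifier of that symbol on the same strand, which had no value, so that its level is uncertain. Smaller overlaps touch *Plxna1* (10.7% of its exonic bases, with an antisense lincRNA), *Efna4* (10.5%), *Epha1* (4.89%), *Plxnb1* (2.35%), *Nrp1* (1.35%) and *Ephb4* (0.711%). All of these smaller overlaps are with genes on the opposite strand, except that of *Nrp1*, which is on the same strand.

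A pair of cytoplasmic mediators stood near the top of the order. *Dpysl3*, on the - strand of chromosome 18 from 43480633 to 43597940, had means of 997 in the shRNA 1 table and 1821 in the shRNA 2 table, and a level of 229 per kb, which ranked 3 among the members. This rank depended on the table, at 3 in the shRNA 2 table alone (291 per kb) and 7 in the shRNA 1 table alone (167 per kb), and was 4 by the longest coding transcript. *Dpysl2*, on chromosome 14 from 67421701 to 67487525, had 869 and 960 and 207 per kb. *Dpysl5* was at 1.29 per kb and *Dpysl4* had no value. Together the Dpysl genes held 11.5% of the summed level. The order of neighbours at similar levels, such as *Dpysl3*, *Epha2*, *Epha4* and *Dpysl2* between 207 and 229 per kb, cannot be separated from error, since none is known.

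To compare the hairpins, the ratio of both means was taken for each gene and centred on the median gene, a shift of -0.07 on the log2 scale. Both means are taken to contain the same 3 control libraries, so the ratio lies nearer to 1 than the ratio of the hairpins themselves, and a ratio away from 1 is a lower limit of it. That holds as far as the centring puts the control means of both tables on 1 scale. It also needs the same control libraries in both tables, which the labels do not show for every control library. With different controls a ratio could move without any difference between the hairpins. Unless it exceeds 2-fold, the ratio gives no direction of either hairpin against the control. A ratio past 0.25 on the log2 scale, or 1.19-fold, at means of 100 or more in both tables was taken as different. By this rule 2 of 24 members were higher in the shRNA 1 table, against 4.82% of the 7693 protein-coding genes at this level, and 3 of 24 were lower, against 3.72%. With 24 genes these counts are small, and no test could be made of them. The median centred log2 ratio of the 24 was -0.07, with quartiles of -0.19 and 0.08, against a median of 0 and quartiles of -0.08 and 0.09 for all genes at this level. Of the 24, 15 were below 0 and 9 above.

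The limits and the difference below assume the same 3 control libraries in both tables, and none has a known error. *Dpysl3* had the ratio farthest from 1 among the 24. Its mean of 1821 in the shRNA 2 table against 997 in the shRNA 1 table gives a centred log2 ratio of -0.80, so that its RNA was at least 1.74-fold higher with shRNA 2 than with shRNA 1 by these means. The difference of shRNA 1 minus shRNA 2 was -1553 normalized counts per library. *Dpysl2*, its relative at a like level, had a centred log2 ratio of -0.08. Next among the 3 lower members was *Sema4c*, a ligand of *Plxnb2*, with means of 139 and 185 and a centred log2 ratio of -0.35, or at least 1.28-fold higher with shRNA 2. *Plxnb1* lay just past the threshold, at -0.26 and at least 1.20-fold, and its close relative *Plxnb2* had 0.07. In the other direction, *Nrp1* had means of 306 and 246 and a centred log2 ratio of 0.38, so that it was at least 1.31-fold higher with shRNA 1, whereas *Nrp2* lay on the other side of 0 at -0.19. *Sema3e*, with means of 1154 and 949, had 0.35 and was at least 1.27-fold higher with shRNA 1, and its chromosomal neighbour *Sema3c* had 0.16. Just inside the thresholds lay *Efnb2* at 0.21 and *Efnb1* at -0.21, and the other 17 of the 19 members between the thresholds were nearer to 0. Among these *Plxna1* and *Plxna2* stood on opposite sides, at -0.13 and 0.14, *Epha2* and *Epha4* were at 0.10 and -0.04, and *Ephb4* was at -0.20.

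**Figure D3:**
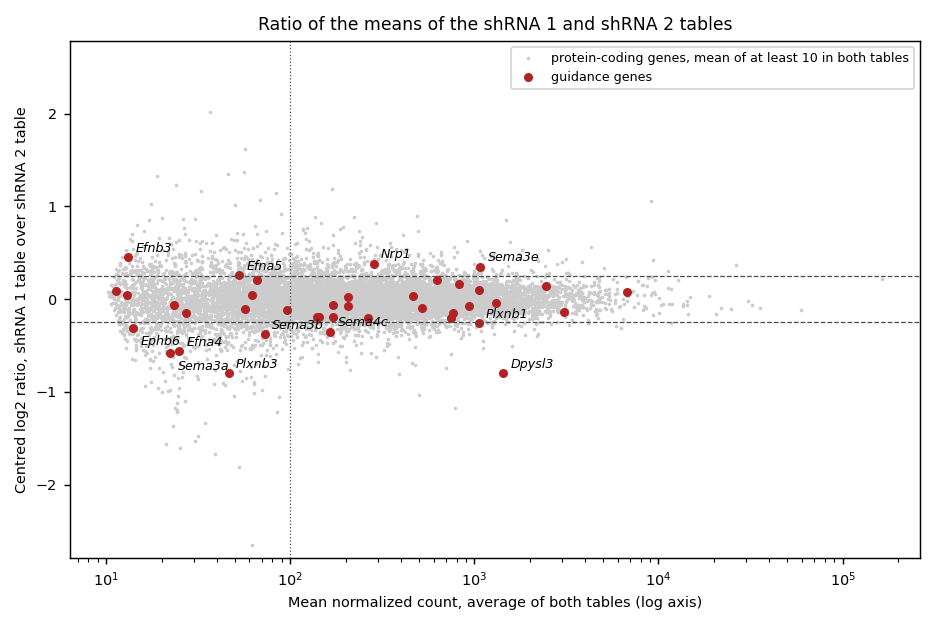
Centred log2 ratio of the shRNA 1 mean over the shRNA 2 mean against the mean normalized count (log axis) for protein-coding genes that reached 10 in both tables (grey) and the guidance genes among them (red), which are named past the dashed lines at 0.25 and -0.25. At 100 or more (dotted line) *Dpysl3* stands apart from the others at -0.80, *Nrp1* and *Sema3e* lie above the upper line and *Sema4c* and *Plxnb1* below the lower one; grey points spread more widely at low means.

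Below a mean of 100 the ratios of all genes spread more widely, and single values carry less weight. *Plxnb3* had means of 32.3 and 58.8 and a centred log2 ratio of -0.80, *Efna4* 19.2 and 29.7 and -0.56, and *Sema3a* 17.0 and 26.7 and -0.58. *Sema4f* had 8.92 and 15.3 and -0.71, *Sema3b* 60.5 and 82.3 and -0.38, and *Efnb3* 14.6 and 11.2 and 0.45. Also past the threshold were *Robo2* (-0.39), *Slit3* (-0.32), *Ephb6* (-0.31), *Slit1* (0.34) and *Efna5* (0.26). For 2 members the means differed by more than 2-fold after centring, which also sets a limit against the control, because the control libraries cannot hold more than the lower mean allows. *Dpysl5* had means of 12.4 and 4.73 and was at least 2.76-fold higher with shRNA 1 than with shRNA 2 and at least 1.76-fold higher than in control cells. *Sema6c* had 4.63 and 11.7 and was at least 2.41-fold higher with shRNA 2 than with shRNA 1 and at least 1.41-fold higher than in control cells. These limits rest on low means and on the 3 control libraries being the same in both tables, 1 library could set either of them, and their counting error is unknown. How many of all genes passed 2-fold at such low means is not given here, so these 2 members cannot be set apart from other low genes.

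Other genes were taken from lists drawn up for this report, for which no outside source is given. They hold genes of the same pathways and also other guidance receptors and ligands, such as netrins and Unc5 receptors. Of 68 genes annotated, 60 were listed and 49 had means of 100 or more in both tables, with a median centred log2 ratio of 0.02. Past the threshold, 1 of the 49 was higher in the shRNA 1 table and 3 were lower, against the 4.82% and 3.72% above. The gene that was higher was *Met*, the receptor of hepatocyte growth factor and a partner of B-class plexins, with means of 2662 and 2294 and a centred log2 ratio of 0.28. The 3 that were lower were *Unc5b*, a netrin receptor (1843 and 2502, -0.37), *Flrt3*, a ligand of Unc5 and latrophilin receptors (160 and 221, -0.40), and *Srgap3*, a GTPase-activating protein that binds Robo receptors (200 and 257, -0.30). *Unc5b* and *Flrt3* came from the list of other guidance receptors and ligands. In it 2 of 5 genes at this level were lower, and the median centred log2 ratio was -0.21. The medians of the remaining pathway lists lay between -0.05 and 0.09. The cytoskeletal effectors that these pathways share, *Rhoa*, *Rac1*, *Cdc42*, *Rock1*, *Rock2*, *Limk1*, *Limk2*, *Cfl1*, *Pak1* and *Pak2*, all had means of at least 100, and 0 of the 10 passed the threshold in either direction. Their levels ran from 16.7 per kb for *Limk1* to 5065 per kb for *Cfl1*, which encodes cofilin. Of the kinases that phosphorylate Dpysl proteins, *Gsk3a*, *Gsk3b* and *Cdk5* had levels of 276, 95.4 and 106 per kb and centred log2 ratios of 0.01, 0.02 and 0.06. *Srgap1*, another Robo-binding protein, was low but had the ratio farthest from 1 among the 59 with a value in both tables, with means of 2.64 and 21.2. It was at least 7.67-fold higher with shRNA 2 than with shRNA 1 and at least 6.67-fold higher than in control cells, with the same reservation as for *Sema6c*.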

How the data were processed

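RNA-seq of 9 AML12 libraries (3 control, 3 shRNA 1, 3 shRNA 2, grouped by the sample titles) was used. Descriptions of 2 control libraries also name tables of other hairpins, not analysed here, in place of the shRNA 2 table, so that the controls in that table rest on the titles. The authors made strand-specific polyA libraries, trimmed the reads, mapped them to mm9 with TopHat2, kept uniquely mapped concordant pairs, counted them by HTSeq for genes of GENCODE M1 and used DESeq2 1.8.2. The signal taken from the 2 deposited tables is the mean normalized count of each gene, that is counts divided by size factors and averaged over the libraries compared, taken to be 6. The other 5 deposited columns hold the authors' comparison of a hairpin with the control (a fold change, its standard error, a statistic and p-values) and were not used, so no test was possible. 0 further columns of single libraries were used. All 13424 and 13478 gene identifiers matched GENCODE M1 on NCBIM37, the assembly of mm9.

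Levels are means per 1000 bases of the union of exons. Ratios of the tables were centred on the median of 7693 protein-coding genes that reached 100 in both tables. The threshold was 0.25 in log2. The calculation was tested on simulated data with the same control counts in both tables. Whether the real tables share their controls was not tested by it. The members and gene lists were chosen with earlier results of these data known. Values were given for every member at a mean of at least 100, the highest of each role and those next to a threshold. Members below that are given for their roles, and the genes with more than a 2-fold ratio, *Srgap1* included, were singled out after their values were seen. Alternatives were other centrings, thresholds, minimum means, gene lengths and single tables. Promoter windows are those of RefSeq on GRCm38.p6. Python 3.11.15, numpy 2.4.6 and matplotlib 3.10.9 were used.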

Additional observations from a re-analysis of the deposited data

How the results depend on the processing

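The counts of members past the threshold, 2 higher and 3 lower in the shRNA 1 table, were the same with the ratio centred on all genes, on the summed means or on its mode, and with the minimum set on the mean of both tables, the last chosen after seeing the data. They moved with the threshold and the minimum. At a threshold of 0.15 they were 4 and 9 of 24, against 1002 and 920 of 7693 protein-coding genes. At 0.5 they were 0 and 1, against 43 and 27. A minimum mean of 10 gave 4 and 8 of 39, against 796 and 770 of 11099. No minimum gave 6 and 12 of 45, against 1156 and 1211 of 12505. The number of members at the minimum in both tables was 39 at a minimum of 10, against 24 at 100, 29 at 50 and 17 at 200. The median centred log2 ratio of the 24 stayed below 0 with every centring, from -0.06 to -0.09. Of all calls at 100 or more, 56.5% were higher in the shRNA 1 table, and 50.9% to 62.1% with the other centrings. The shares of the role groups kept within 1.5 times of their values, and the 10 genes with the highest level were the same 10, with the length of the longest coding transcript. No paired analysis was possible because the values are means over libraries, and for the same reason no replicate was left out. The depth of single libraries and the error between them are not known here, so no limit from depth can be given.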
